A study of Homo sapiens with 18 samples.

Results

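The 29 genes described here make cholesterol or regulate and move sterols, and were taken by symbol from the 36601 gene IDs of the deposited tables. They comprise 7 enzymes of the mevalonate steps, 11 enzymes from squalene to cholesterol, 5 sterol-sensing genes, 3 genes of sterol movement and 3 genes known as oxysterol targets. They were measured by RNA sequencing in 3 human cell lines of cholangiocarcinoma, a cancer of the bile duct epithelium. The labelled tissue is bile duct for HuCCT1, liver for YSCCC and biliary tract for KKU-100. Each line was a stable lentiviral line with either a control hairpin (shControl) or a short hairpin against RNF213 (shRNF213#2). RNF213 encodes a large ubiquitin ligase with ATPase modules. Each of the 6 groups held 3 biological replicates, which makes 18 libraries. HuCCT1 and YSCCC grew in RPMI-1640 and KKU-100 in Ham's F12, all with 10% serum, so that line and medium cannot be told apart for KKU-100. Only 1 hairpin against RNF213 is analysed here, and an effect of the hairpin apart from RNF213 cannot be told apart from one through RNF213.

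Cells make cholesterol from acetyl-CoA by way of mevalonate, farnesyl diphosphate, squalene and lanosterol. When sterols in the endoplasmic reticulum are scarce, SCAP carries the transcription factors SREBP-1 and SREBP-2 (genes SREBF1 and SREBF2) to the Golgi, where they are cut and released to switch on the enzyme genes. When sterols are ample, INSIG1 and INSIG2 hold SCAP back in the endoplasmic reticulum, and oxysterols switch on the exporters ABCA1 and ABCG1 through the nuclear receptors LXR. INSIG1 is itself switched on by SREBPs, so that it is both a brake on the pathway and one of its targets.

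Promoter sequence is given for the pair of genes that the hairpin comparisons called (INSIG1 and SREBF1). It is also given for SREBF2, which matched the sterol motif marked below, and for EBP, which differed most between HuCCT1 and YSCCC. Each run holds the 250 bases before the RefSeq start, on build GRCh38.p14, on the gene's own strand from 5′ to 3′. INSIG1 lies at chr7:155297628-155297877 (plus strand), SREBF1 at chr17:17836987-17837236 (minus strand), SREBF2 at chr22:41832855-41833104 (plus strand) and EBP at chrX:48521558-48521807 (plus strand). Capitals mark TCACNCCAC (a strict form of the sterol regulatory element) and CCAAT (the box bound by NF-Y). Both strands were searched, so that CCAAT appears as ATTGG where it lies on the other strand.
INSIG1: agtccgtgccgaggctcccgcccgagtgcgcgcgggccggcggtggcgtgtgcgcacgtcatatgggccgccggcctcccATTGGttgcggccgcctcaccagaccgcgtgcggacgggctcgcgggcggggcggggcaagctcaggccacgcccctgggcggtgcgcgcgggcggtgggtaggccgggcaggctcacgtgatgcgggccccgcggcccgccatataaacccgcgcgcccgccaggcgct
SREBF1: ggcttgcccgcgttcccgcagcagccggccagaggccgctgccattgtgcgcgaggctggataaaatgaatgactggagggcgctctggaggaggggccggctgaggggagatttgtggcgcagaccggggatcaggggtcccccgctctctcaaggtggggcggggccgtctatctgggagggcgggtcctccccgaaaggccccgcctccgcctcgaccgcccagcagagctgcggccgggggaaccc
SREBF2: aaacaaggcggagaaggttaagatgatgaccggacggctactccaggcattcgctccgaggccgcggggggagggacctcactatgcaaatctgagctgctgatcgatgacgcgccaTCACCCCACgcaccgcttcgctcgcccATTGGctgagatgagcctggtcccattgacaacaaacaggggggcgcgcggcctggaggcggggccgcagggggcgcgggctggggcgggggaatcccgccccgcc
EBP: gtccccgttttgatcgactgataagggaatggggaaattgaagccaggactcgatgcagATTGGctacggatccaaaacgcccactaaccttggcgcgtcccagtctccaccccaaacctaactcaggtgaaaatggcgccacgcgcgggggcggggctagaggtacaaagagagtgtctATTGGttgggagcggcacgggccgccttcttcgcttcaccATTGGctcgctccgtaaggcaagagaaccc

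RefSeq windows of 250 bases before to 50 after a start were at hand for 25 of the 29 genes; ACAT2, FDFT1, SQLE and ABCG1 had none. TCACNCCAC was found in 1 of the 25, at position -133 of SREBF2, against 1.39% of all 27305 genes with a window. CCAAT was found in 18 of the 25 (72%), against 39.7% of all genes. GGGCGG, the GC box bound by Sp1, was found in 24 of the 25 (96%), against 48.3%. Of the 15 enzyme genes with a window, 13 held CCAAT and 14 held GGGCGG. None of the 3 motifs contains another, and a match is a description of the letters, not of binding. Only these exact letters were searched, so a window without a match may still hold a variant of the sterol element.

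Library totals ran from 21056732 to 25502097 counts, and mitochondrial transcripts took 1.61% to 2.76% of them. RNF213 was lower in the shRNF213#2 library in 9 of 9 pairs of the same replicate number. The paired fits gave RNF213 a log2 change of -1.16 in YSCCC (edgeR adjusted p = 0.000307), -0.97 in KKU-100 (adjusted p = 0.0462) and -0.89 in HuCCT1 (adjusted p = 0.136). Of the 8 biliary markers, all had a mean above 1 CPM (counts scaled to library size), but KRT19 and EPCAM were at or near 0 in KKU-100. Their sum was 7317 to 10105 CPM in HuCCT1, 4299 to 7799 in YSCCC and 875 to 1459 in KKU-100. Hepatocyte markers summed to 2.04 to 27.1 CPM, mostly from CPS1 in KKU-100, with ALB near 0 in every group. Leukocyte markers summed to 40.7 to 117 CPM, nearly all from CD68, while CD3E was near 0. Fibroblast markers reached 250 CPM in YSCCC, mostly from LUM, and endothelial markers 98.3 CPM in YSCCC, mostly from CDH5. All levels are averages over the cells of a bulk culture, in which fewer expressing cells and less RNA per cell cannot be told apart.

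The sterol brake INSIG1 had the widest mean change of the 29 members with the hairpin. No enzyme gene passed the main test in any line with all pairs. Alternative settings with all pairs called MSMO1 in YSCCC and HMGCS1 or SC5D in KKU-100, each lower. INSIG1 fell in YSCCC, with a log2 change of -1.06 (SE 0.15, adjusted p = 0.00134 over 3 pairs), and fell in the mean over the 3 lines, with a log2 change of -1.09 (SE 0.18, adjusted p = 0.00502 over 9 pairs). SREBF1 rose in YSCCC by a log2 change of 0.40 (SE 0.11, adjusted p = 0.0379). The main test is edgeR's quasi-likelihood test with the replicate number as a pair and Benjamini-Hochberg adjustment over all genes tested. A gene is said to have risen or fallen below an adjusted p of 0.05. All 29 members passed the filter on low counts in every comparison.

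In HuCCT1, 0 of 29 members were called, where 0.114% of 15747 genes rose and 0.0254% fell. In YSCCC, 1 member rose and 1 fell, against 3.69% and 4.56% of 16932 genes, so the count of members is near the background. In KKU-100, 0 of 29 were called, against 0.302% higher and 0.141% lower of 14915 genes. For the mean effect over lines, 0 members rose and 1 fell, against 1.43% and 1.47% of 19143 genes. At an unadjusted edgeR p below 0.05 stood 5 of 29 members in HuCCT1, against 11.1% of all genes, and 6 in YSCCC, against 22.9%. The counts were 11 in KKU-100, against 16%, and 9 in the mean effect, against 17%. With DESeq2 and the same pairs, the count called was 0 in HuCCT1, against 0.892% of genes with an adjusted p, and 2 in KKU-100 (HMGCS1 lower, ABCG1 higher), against 3.04%. Single replicates decided some counts. Without replicate 2, edgeR called 4 members in HuCCT1 (ACAT2, HMGCS1, IDI1 and FDPS, all higher), against 1.1% of all genes. Without replicate 3 it called 5 in YSCCC (ACAT2, TM7SF2 and SREBF1 higher, INSIG1 and ABCA1 lower), against 11%. In KKU-100 it called 3 without replicate 1 (ACAT2, MVD and INSIG1, all lower), against 0.495%, and 1 without replicate 2 (ABCG1, higher), against 2.81%. The mean effect without KKU-100 replicate 1 had 5 called members, INSIG1, MVK, MVD, MSMO1 and SC5D, all lower, against 2.29%.

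INSIG1 (chr7:155297776-155310235, plus strand) overlaps no other gene of the tables. In HuCCT1, INSIG1 stood at 88.0, 195 and 143 CPM in the shControl libraries and at 78.4, 133 and 140 CPM in the shRNF213#2 libraries of the same numbers. In YSCCC it stood at 143, 46.7 and 62.1 CPM with shControl and at 69.1, 31.9 and 20.8 CPM with shRNF213#2. In KKU-100 it stood at 13.8, 55.1 and 83.9 CPM with shControl and at 9.74, 12.5 and 10.3 CPM with shRNF213#2. The groups overlapped in HuCCT1 and YSCCC and did not overlap in KKU-100, where the shControl library of replicate 1 lay close to the shRNF213#2 libraries. The INSIG1 level was lower in the shRNF213#2 library of all 9 pairs, which held for 1.19% of 19143 genes. On the deposited TPM, which are also scaled by transcript length, it was lower in 8 of 9, the exception being HuCCT1 replicate 3, with a log2 ratio of 0.04.

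**Figure D1:**
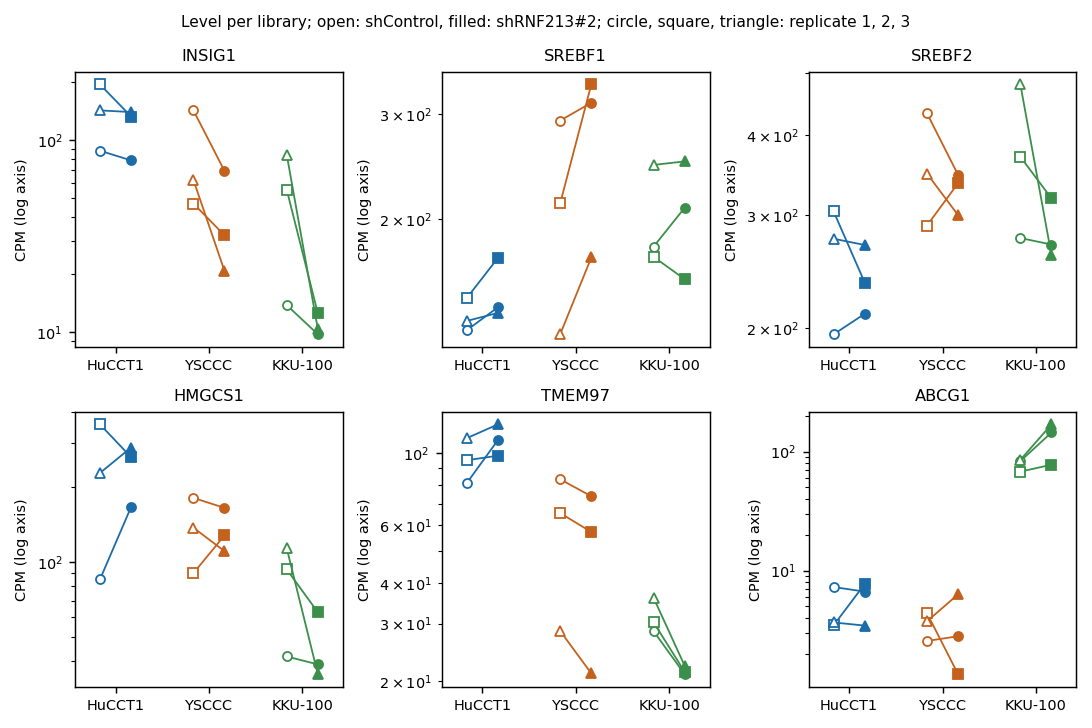
Level in CPM (log axis) of 6 genes in each library, by line, where lines join the shControl (open) and shRNF213#2 (filled) library of one replicate number and the symbol gives the number. INSIG1 goes down in all 9 pairs, and the vertical scales differ between panels.

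The log2 ratio of INSIG1 was -0.17, -0.56 and -0.03 in the HuCCT1 pairs, -1.05, -0.55 and -1.58 in the YSCCC pairs, and -0.51, -2.14 and -3.02 in the KKU-100 pairs. The paired fit for KKU-100 gave -1.94 (SE 0.40, adjusted p = 0.099) and that for HuCCT1 gave -0.25 (SE 0.11, adjusted p = 0.435), and both missed the threshold. The KKU-100 value passed without replicate 1, at -2.57 (adjusted p = 0.000293), and in a fit of all 18 libraries (adjusted p = 0.00606). In that same fit the YSCCC call was lost (-1.06, adjusted p = 0.0632). Differences between lines in the change of INSIG1 were -0.81 for YSCCC minus HuCCT1 (SE 0.41, adjusted p = 0.609), -1.71 for KKU-100 minus HuCCT1 (SE 0.44, adjusted p = 0.122) and -0.90 for KKU-100 minus YSCCC (SE 0.44, adjusted p = 0.297). None of these differences passed the threshold with all pairs; without KKU-100 replicate 1 both differences of KKU-100 from the other lines were called, at -2.31 (adjusted p = 0.00699) and -1.51 (adjusted p = 0.0233). Fitted without the pairs, INSIG1 was not called in YSCCC (adjusted p = 0.999) or in the mean over lines (adjusted p = 0.298).

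INSIG1 and the enzymes are both known targets of SREBPs. In each pair the log2 ratio of INSIG1 was set against the median over the 18 enzymes. That difference was below 0 in all 9 pairs: the HuCCT1 pairs gave -0.52, -0.41 and -0.16, the YSCCC pairs -0.97, -0.96 and -1.17, and the KKU-100 pairs -0.69, -1.68 and -1.71. INSIG1 had a lower ratio than every enzyme in 8 of 9 pairs, and than all but 1 in HuCCT1 replicate 3. INSIG1 was lower in all 9 pairs, while the number of enzymes lower with shRNF213#2 varied. Of 18 enzymes, HuCCT1 replicates 1 to 3 had 1, 14 and 2 lower. YSCCC replicates had 14, 1 and 17 lower, KKU-100 replicates 2, 18 and 16. In each line, most enzymes were also lower in the pair where INSIG1 fell furthest. Over the 6 libraries of a line, INSIG1 also went with the enzymes. Its correlation with them was 0.82 for HuCCT1. For YSCCC it was 0.77, for KKU-100 0.92. INSIG1 was singled out for its wide mean change, so its low place within the pairs is partly built in. The pair values and correlations describe the libraries and carry no test of their own.

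**Figure D2:**
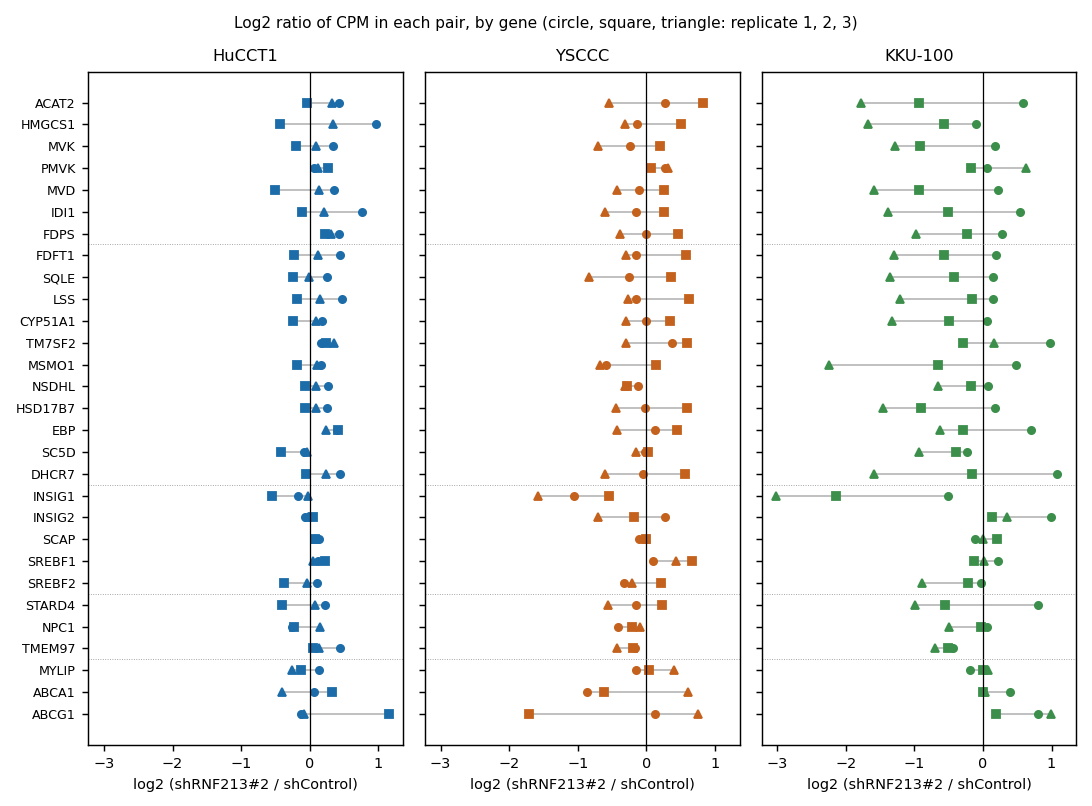
Log2 ratio of CPM, shRNF213#2 over shControl, for each of the 29 genes in each of 3 pairs per line (symbols), grouped by role with dotted lines. INSIG1 lies left of 0 in all 9 pairs, and most enzymes of KKU-100 spread from replicate 1 at the right to replicate 3 at the left.

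The 7 enzymes of the mevalonate steps carry acetyl-CoA to farnesyl diphosphate. The median log2 change of these 7 was -0.70 in KKU-100, 0.02 in YSCCC and 0.24 in HuCCT1, where the median over all genes was within 0.01 of 0 in each line. None passed the test. HMGCS1, which makes the precursor of mevalonate, stood at 85.1, 358 and 228 CPM in HuCCT1 shControl and at 166.5, 264 and 289 CPM in HuCCT1 shRNF213#2. It stood at 41.7, 93.4 and 114 CPM in KKU-100 shControl and at 38.8, 62.8 and 35.4 CPM in KKU-100 shRNF213#2. In both lines replicate 1 was the lowest of the shControl libraries, and the groups overlapped. The log2 change of HMGCS1 was -0.79 in KKU-100 (SE 0.26, adjusted p = 0.216). PMVK, the kinase that adds the next phosphate to phosphomevalonate, was higher in 8 of 9 pairs, with a mean log2 change of 0.18 (SE 0.08, adjusted p = 0.268).

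The 11 enzymes from squalene to cholesterol had medians of 0.09, 0.01 and -0.52 in HuCCT1, YSCCC and KKU-100. EBP, which moves a double bond in the sterol ring, stood at 181.5, 189 and 210.4 CPM in HuCCT1 shControl and at 238, 251 and 247 CPM in HuCCT1 shRNF213#2. These groups did not overlap, which held for 8.14% of all genes in HuCCT1 in either direction, and the log2 change of 0.34 (SE 0.08) had an adjusted p of 0.207. SC5D, a desaturase of the last steps, was lower in 8 of 9 pairs, with a mean log2 change of -0.25 (SE 0.07, adjusted p = 0.0803). In KKU-100, SC5D stood at 62.4, 67.6 and 73.3 CPM with shControl and at 53.3, 51.7 and 38.3 CPM with shRNF213#2, without overlap. MSMO1, which acts early in the removal of methyl groups, had the lowest value of these enzymes in KKU-100, -0.81 (SE 0.42, adjusted p = 0.396).

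The enzyme levels also varied between libraries that carry the same hairpin. Their summed level in HuCCT1 was 1861, 3202 and 2629 CPM with shControl and 2410, 2899 and 2948 CPM with shRNF213#2. In YSCCC it was 2254, 1244 and 1889 CPM with shControl and 2081, 1649 and 1392 CPM with shRNF213#2. In KKU-100 it was 548, 1137 and 1410 CPM with shControl and 641, 821 and 565 CPM with shRNF213#2. The sums overlapped between the hairpins in every line. The highest library was 1.72 times the lowest in HuCCT1, 1.81 times in YSCCC and 2.57 times in KKU-100, and in each line both extremes were shControl libraries.

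**Figure D3:**
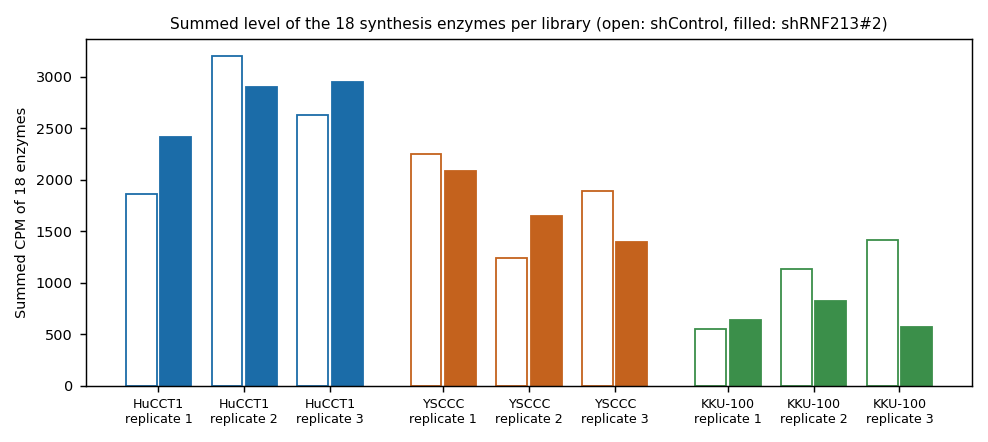
Summed CPM of the 18 synthesis enzymes in each library, by line and replicate number (open, shControl; filled, shRNF213#2; axis from 0). Bars run from 548 CPM in KKU-100 shControl replicate 1 to 3202 CPM in HuCCT1 shControl replicate 2.

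In HuCCT1 and YSCCC, libraries of replicate 1 stood apart in these genes whichever hairpin they carried. In HuCCT1, both libraries of replicate 1 lay below the other 4 libraries for 16 of 29 members, against 12% of all genes, and both of replicate 2 lay above for 9, against 13.6%. In YSCCC, both libraries of replicate 1 lay above the other 4 for 13 members, against 7.79% of all genes. In YSCCC replicate 3 both lay below for 7 members, against 27.1%, a share near the background. In KKU-100 replicate 1 both lay below for 6, against 14.2%. Lists of other genes stood apart in other libraries in HuCCT1 and YSCCC. Interferon-stimulated genes summed to 5398 and 5137 CPM in HuCCT1 replicate 2 and to between 320 and 666 CPM in the other HuCCT1 libraries. Genes of endoplasmic reticulum stress summed to 4908 and 3688 CPM in YSCCC replicate 3 and to between 1185 and 1386 CPM in the other YSCCC libraries. In KKU-100, the shControl library of replicate 1 had the highest sums of both lists, at 10022 and 5984 CPM, and the lowest enzyme sum. The part of these states in the results was not tested.

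Of the other sterol-sensing genes, SREBF1 (chr17:17810399-17837011, minus strand) encodes SREBP-1, whose main targets are genes of fatty acid as well as sterol synthesis. In YSCCC, SREBF1 stood at 293, 212 and 128 CPM with shControl and at 314, 337 and 172 CPM with shRNF213#2, higher in each pair though the groups overlapped. In HuCCT1 it stood at 130, 147 and 135 CPM with shControl and at 142, 172 and 139 CPM with shRNF213#2. In KKU-100 it stood at 180, 173 and 246 CPM with shControl and at 209, 158 and 249.9 CPM with shRNF213#2. SREBF1 was thus higher in 8 of 9 pairs by CPM, with replicate 2 of KKU-100 the exception. On the deposited TPM its log2 ratio was also slightly below 0 in other pairs. It was -0.03 in HuCCT1 replicate 3, and -0.08 and -0.05 in KKU-100 replicates 2 and 3. The mean log2 change of SREBF1 over lines, from counts, was 0.19 (SE 0.06, adjusted p = 0.135). The YSCCC call was lost without replicate 2, where the log2 change was 0.26 (adjusted p = 0.267), and without pairs (adjusted p = 0.999). SREBF1 overlaps RAI1 on the other strand, and the sources used here do not say whether the counting used the strand. RAI1 had a log2 change of 0.20 in YSCCC (adjusted p = 0.269).

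SREBF2 encodes SREBP-2, the main activator of cholesterol synthesis. SREBF2 stood at 196, 304 and 276 CPM in HuCCT1 shControl and at 211, 236 and 269.7 CPM in HuCCT1 shRNF213#2. In YSCCC it stood at 432, 289 and 348 CPM with shControl and at 347, 337 and 300.1 CPM with shRNF213#2. In KKU-100 it stood at 277, 369.97 and 479.5 CPM with shControl and at 270.2, 319 and 259.9 CPM with shRNF213#2. The groups overlapped in every line, and the mean log2 change was -0.19 (SE 0.09, adjusted p = 0.279).

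SCAP, the escort of the SREBPs, was not called in any line. Its levels were 76.8, 83.8 and 77.9 CPM in HuCCT1 shControl, 76.7, 69.2 and 61.5 CPM in YSCCC shControl and 129, 117 and 131 CPM in KKU-100 shControl. With shRNF213#2 they were 84.8, 88.2 and 82.0 CPM in HuCCT1, 71.1, 69.0 and 61.1 CPM in YSCCC and 119, 134 and 131 CPM in KKU-100. The mean log2 change of SCAP was 0.03 (SE 0.05, adjusted p = 0.874). INSIG2, the second retention protein, stood at 67.2, 88.5 and 67.0 CPM in HuCCT1 shControl and at 64.4, 91.6 and 65.8 CPM in HuCCT1 shRNF213#2. In YSCCC it stood at 24.6, 23.7 and 42.3 CPM with shControl and at 29.9, 21.01 and 25.9 CPM with shRNF213#2. In KKU-100 it stood at 23.7, 57.1 and 29.5 CPM with shControl and at 46.8, 62.4 and 37.6 CPM with shRNF213#2, higher in each of the 3 pairs. The KKU-100 log2 change of INSIG2 was 0.48 (SE 0.17, adjusted p = 0.228), on the other side of 0 from that of INSIG1.

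Among the genes of sterol movement, TMEM97, a membrane protein that binds NPC1, the exporter of lysosomal cholesterol, was lower in KKU-100 without overlap between the groups. The TMEM97 levels in KKU-100 were 28.4, 30.3 and 36.0 CPM with shControl and 20.96, 21.3 and 22.2 CPM with shRNF213#2. The log2 change was -0.55 in KKU-100 (SE 0.13, adjusted p = 0.125) and 0.21 in HuCCT1 (SE 0.09, adjusted p = 0.458). The difference between these lines was -0.76 (SE 0.15, adjusted p = 0.0555). Across members, the groups did not overlap for 1 in HuCCT1 (EBP), 0 in YSCCC and 3 in KKU-100 (SC5D, INSIG1, TMEM97), against 10.3% of all genes in YSCCC and 11.3% in KKU-100. No member was called for a difference between lines in the hairpin effect, where 0.047% of genes were called for YSCCC minus HuCCT1, 0.235% for KKU-100 minus HuCCT1 and 2.63% for KKU-100 minus YSCCC. At an unadjusted edgeR p below 0.05 the counts of members were 1, 9 and 5 in the same order, against 8.83%, 12.5% and 18.2% of all genes, so that the first and the last were not above the background.

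With all pairs, edgeR called none of the oxysterol targets with the hairpin in any line or in the mean. ABCG1, a sterol exporter, stood at 83.2, 67.9 and 85.2 CPM in KKU-100 shControl and at 145, 77.6 and 169.5 CPM in KKU-100 shRNF213#2, higher in each pair, with overlap between the groups. Its log2 change there was 0.66 (SE 0.16, adjusted p = 0.125), and it was called higher with DESeq2 (adjusted p = 0.00875) and without replicate 2 (0.89, edgeR adjusted p = 0.0123). ABCA1, the other exporter, had a log2 change of 0.14 in KKU-100 (SE 0.13, adjusted p = 0.633). In YSCCC, ABCA1 stood at 125, 161 and 42.6 CPM with shControl and at 68.7, 105 and 64.7 CPM with shRNF213#2. Its log2 change there was -0.31 (SE 0.20, adjusted p = 0.401), and without replicate 3 it was called lower, at -0.74 (adjusted p = 1.28e-05). MYLIP, a ubiquitin ligase that degrades lipoprotein receptors, had a log2 change of -0.04 in KKU-100 (SE 0.13, adjusted p = 0.919).

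More members were called between lines than between hairpins. Among shControl libraries, 8 of 29 members differed between YSCCC and HuCCT1, 19 between KKU-100 and HuCCT1 and 13 between KKU-100 and YSCCC. These comparisons share libraries. The lines differ in most genes: 30.2% of 18010 genes were higher and 28.1% lower in YSCCC than in HuCCT1, 27.3% and 30.1% in KKU-100 than in HuCCT1, and 27.9% and 32.9% in KKU-100 than in YSCCC. Against these, the members split 2 higher and 6 lower in YSCCC against HuCCT1, 5 and 14 in KKU-100 against HuCCT1, and 5 and 8 in KKU-100 against YSCCC. With 1 shControl library left out, 9 members were lower in KKU-100 than in HuCCT1 without HuCCT1 replicate 2, against 27.2% of all genes. Without KKU-100 replicate 1 there were also 9, against 27.9%. Members lower in KKU-100 than in YSCCC numbered 5 without YSCCC replicate 1, against 28.6%. The median log2 difference of the members was -0.31, -1.02 and -0.59, where that of all genes was 0.02, -0.01 and -0.09. In KKU-100 against HuCCT1, 12 of the 18 enzymes were lower and 0 higher, while all 3 oxysterol targets were higher.

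**Figure D4:**
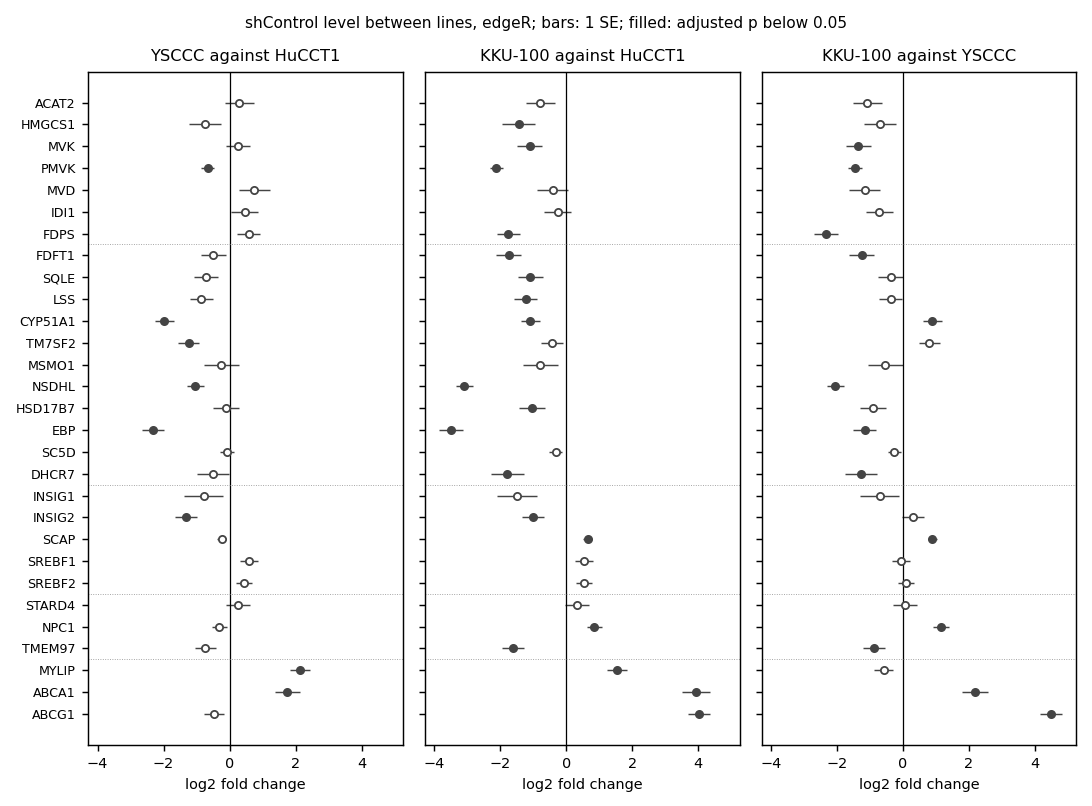
Log2 fold change of each of the 29 genes between the shControl libraries of 2 lines, with 1 SE (3 libraries per line), filled where the adjusted p was below 0.05. Enzymes lie mostly left of 0 in KKU-100 against HuCCT1, and ABCA1 and ABCG1 lie right of 0 in both KKU-100 panels.

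EBP was higher in HuCCT1 than in either other line. Its shControl levels were 181.5, 189 and 210.4 CPM in HuCCT1, 50.03, 32.3 and 36.6 CPM in YSCCC and 7.97, 19.7 and 24.6 CPM in KKU-100. The log2 difference was -2.32 for YSCCC (SE 0.35, adjusted p = 0.000261) and -3.48 for KKU-100 (SE 0.36, adjusted p = 2.47e-05), each against HuCCT1. CYP51A1, which removes the first methyl group from lanosterol, stood at 232, 408 and 319 CPM in HuCCT1, 103, 60.4 and 85.6 CPM in YSCCC and 106, 156 and 192 CPM in KKU-100. CYP51A1 was lower in YSCCC, with a log2 difference from HuCCT1 of -1.98 (SE 0.29, adjusted p = 0.000241). FDPS, which makes farnesyl diphosphate, stood at 99.9, 125 and 146 CPM in HuCCT1, 219, 133 and 216 CPM in YSCCC and 17.3, 45.6 and 47.5 CPM in KKU-100. The FDPS difference of KKU-100 from YSCCC was -2.34 (SE 0.36, adjusted p = 0.000312). NSDHL, a dehydrogenase of the steps from squalene to cholesterol, was lower in both other lines than in HuCCT1. Its log2 difference was -3.09 in KKU-100 (SE 0.27, adjusted p = 6.58e-06) and -1.03 in YSCCC (SE 0.25, adjusted p = 0.00457).

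The exporters ran the other way in KKU-100. ABCG1 stood at 7.28, 3.46 and 3.67 CPM in HuCCT1, 2.56, 4.38 and 3.74 CPM in YSCCC and 83.2, 67.9 and 85.2 CPM in KKU-100. The log2 difference of ABCG1 was 4.03 from HuCCT1 (SE 0.33, adjusted p = 4.66e-06) and 4.49 from YSCCC (SE 0.34, adjusted p = 2.44e-06). ABCA1 stood at 36.9, 33.9 and 24.4 CPM in HuCCT1, 125, 161 and 42.6 CPM in YSCCC and 462, 507 and 487 CPM in KKU-100. No KKU-100 library overlapped the other lines in either exporter, but the share of all genes without such overlap was not counted. Of all genes, 57.4% were called between KKU-100 and HuCCT1 and 60.7% between KKU-100 and YSCCC. MYLIP stood lower in HuCCT1 than in the other lines, at 6.87, 8.52 and 11.6 CPM, against 46.7, 50.1 and 24.0 CPM in YSCCC and 27.8, 24.4 and 26.7 CPM in KKU-100. Its log2 difference from HuCCT1 was 1.54 in KKU-100 (SE 0.30, adjusted p = 0.00126) and 2.13 in YSCCC (SE 0.30, adjusted p = 0.000187).

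Of the 5 sterol-sensing genes, SCAP and INSIG2 differed between lines in the shControl libraries. SREBF1 and SREBF2 were called in none of the 3 pairs of lines, with log2 differences between -0.05 and 0.59. SCAP was higher in KKU-100 than in HuCCT1, by 0.66 (SE 0.14, adjusted p = 0.00229), and than in YSCCC, by 0.89 (SE 0.14, adjusted p = 0.000328). INSIG2 was lower than in HuCCT1 in both other lines, with log2 differences of -1.02 for KKU-100 (SE 0.34, adjusted p = 0.0244) and -1.33 for YSCCC (SE 0.34, adjusted p = 0.00671). INSIG1 was not called there, its KKU-100 value against HuCCT1 being -1.49 (SE 0.60, adjusted p = 0.054). In the shRNF213#2 libraries INSIG1 was called in all 3 comparisons, at -1.52 for YSCCC against HuCCT1 (adjusted p = 0.00606), -3.43 for KKU-100 against HuCCT1 (adjusted p = 5.61e-05) and -1.91 for KKU-100 against YSCCC (adjusted p = 0.00183). In these libraries SREBF1 (0.87, adjusted p = 0.0125) and SREBF2 (0.47, adjusted p = 0.0188) were also higher in YSCCC than in HuCCT1.

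Scaled by transcript length, FDPS was the most abundant of the 29 in every line, at a mean of 704 TPM in HuCCT1, 1201 TPM in YSCCC and 173 TPM in KKU-100 shControl. ABCG1 was the lowest in HuCCT1 (3.24 TPM) and YSCCC (2.84 TPM), and PMVK in KKU-100 (16.6 TPM). ABCA1 took place 27 in HuCCT1, at 6.37 TPM, and place 7 in KKU-100, at 99.8 TPM. For FDPS and ACAT2 the level depends on the unit, as their CPM is low for their TPM. ACAT2 overlaps TCP1, MVK overlaps MMAB, FDPS overlaps RUSC1-AS1, NPC1 overlaps RMC1 and TMEM97 overlaps IFT20 on the other strand, so that reads may be shared in the counts of these genes. TM7SF2 overlaps VPS51 on the same strand.

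**Figure D5:**
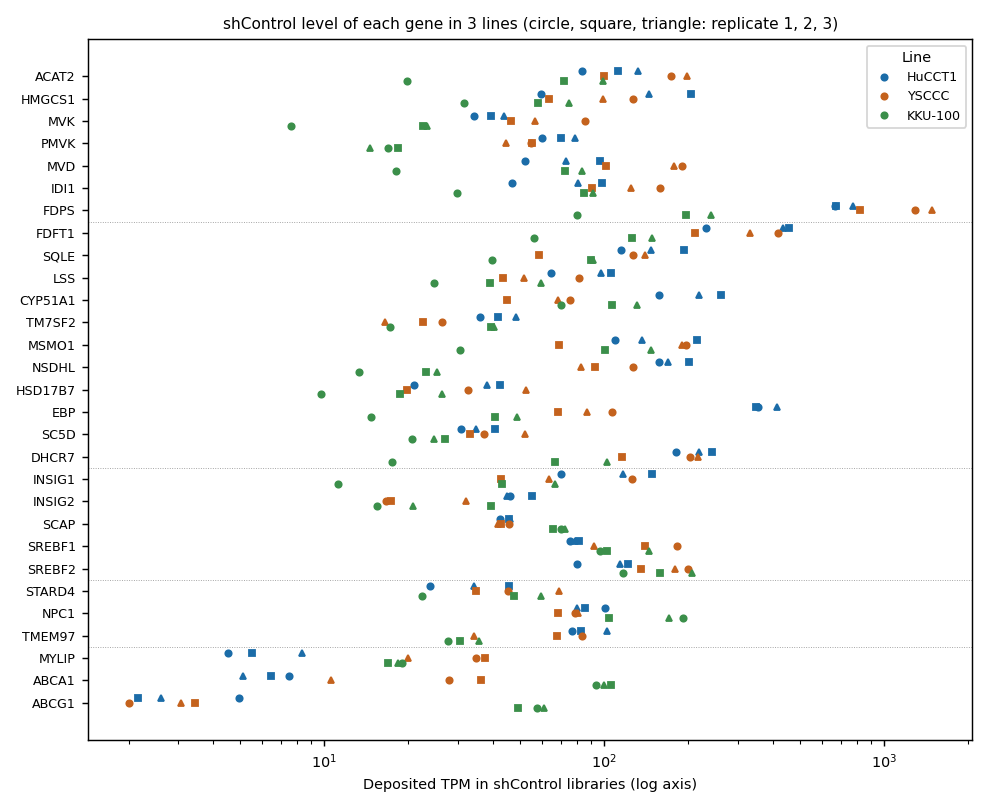
Deposited TPM (log axis) of the 29 genes in the 3 shControl libraries of each line, by role with dotted lines. FDPS has the highest mean in each line, but at 80.3 TPM it was not the highest in KKU-100 replicate 1. ABCA1 and ABCG1 are set apart in KKU-100.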

How the data were processed

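Each of the 18 deposited tables holds raw counts and TPM (scaled by transcript length) per gene ID, both made by the authors. The submitters' processing notes name build GRCh38 with HTSeq 0.6.1p1, StringTie 2.1.6, STAR 2.5.1b, DESeq2 1.34.0, FastQC 0.11.9 and Picard 1.139. They do not tie a tool to a column, and they give no strand setting.

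Counts were tested with edgeR 4.0.16 under R 4.3.3 (TMM factors, quasi-likelihood F test), after filterByExpr at a minimum count of 10 and a minimum total of 15. Each line was fitted alone on 6 libraries with the replicate number as a pair. The mean over lines and the differences between lines came from 1 fit of all 18 libraries with line and replicate as a block. Levels between lines came from the 9 shControl libraries. P-values are two-sided and adjusted over all genes tested, with 0.05 as threshold. For the hairpin with pairs they measure the spread of the differences within pairs. For levels between lines they measure the spread between the labelled biological replicates. CPM values use the TMM-scaled totals. The fit was tested on simulated counts.

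Replicate numbers were taken as pairs because deviations from the group mean correlated within a number by 0.717 to 0.790 in HuCCT1, 0.724 to 0.902 in YSCCC and 0.396 to 0.730 in KKU-100, over 10589, 10702 and 10228 genes. The numbers come from the sample titles, which name no shared culture day. Libraries of different number correlated by at most -0.18, 0.66 and 0.13 in the same order of lines.

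The members, the related lists and the tests were chosen with earlier results of these data known. Full values are given for members called with the hairpin, for the 3 widest differences per pair of lines and for the 5 sterol-sensing genes, with further members summarised or chosen after their values were seen. A cytokine subunit listed by mistake among the oxysterol genes was left out, and some genes of the marker and related lists are not reported here. Alternatives were no pairs, DESeq2 1.42.0, limma 3.58.1 (voom), other size factors, no filter, a fit of all 18 libraries and the omission of each replicate. The use of the 9 shRNF213#2 libraries between lines was added after seeing the data.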

Additional observations from a re-analysis of the deposited data

How the results depend on the processing

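The 3 member changes called with the hairpin were INSIG1 in YSCCC and in the mean, and SREBF1 in YSCCC. Of their 31 values under alternative runs, 25 stayed called, 6 did not and 0 reversed. Other named changes were not part of this check. Without the replicate block, 0 members were called in YSCCC (2 with pairs), against 0% of all genes. In the mean over lines the count was 0 (1 with pairs), against 0.146%. HuCCT1, KKU-100 and the 3 differences between lines stayed at 0. With the number as a block between lines, the counts were 8, 19 and 15, against 54.2%, 53.5% and 56.9% of all genes. DESeq2 called 2 members in KKU-100, 2 in the mean and 1 (TMEM97) for KKU-100 minus HuCCT1. The shares of all genes with an adjusted p were 3.04%, 7.18% and 2.29% in that order. With no filter on low counts, 3 members were called in YSCCC, against 7.33% of all genes. They included MSMO1, which was lower (-0.38, edgeR adjusted p = 0.00503). MSMO1 was also called lower in YSCCC without replicate 2 (-0.64, adjusted p = 0.0123), where 3.07% of all genes were called. With no filter, 1 member (INSIG1) was called in KKU-100, against 0.738%, and 3 for KKU-100 minus HuCCT1, against 0.861%. A fit of all 18 libraries called 0 in YSCCC, against 4.09% of all genes, and 3 in KKU-100 (SC5D, INSIG1, TMEM97), against 4.42%. In that fit INSIG1 in YSCCC had an adjusted p of 0.0632 and SREBF1 one of 0.0601. Leaving out each replicate gave 0 to 4 members in HuCCT1, 2 to 5 in YSCCC, 0 to 3 in KKU-100, 1 to 5 in the mean, 0 to 1 for KKU-100 minus HuCCT1 and 0 to 4 for KKU-100 minus YSCCC. The 4 in HuCCT1 (ACAT2, HMGCS1, IDI1, FDPS, all higher) came without replicate 2, against 1.1% of all genes, and the 5 in YSCCC came without replicate 3, against 11%. The 5 in the mean and the 4 for KKU-100 minus YSCCC came without KKU-100 replicate 1, against 2.29% and 1.68%. The 1 for KKU-100 minus HuCCT1 came without KKU-100 replicate 1, against 0.249%, and without its replicate 2, against 1.48%. INSIG1 stayed called in the mean without any 1 pair, at -1.29 to -0.90 (adjusted p 0.000182 to 0.0241). Between lines, the 9 shRNF213#2 libraries called 18 members for YSCCC against HuCCT1, 25 for KKU-100 against HuCCT1 and 24 for KKU-100 against YSCCC, against 61.6%, 60.4% and 61.8% of all genes. These included 8 of 8, 19 of 19 and 12 of 13 of the shControl calls, all in the same direction. With 1 shControl library left out, the counts ran from 7 to 10, 14 to 20 and 10 to 14 in the same order. The shares of all genes ran from 50.4% to 60.4%, 48.7% to 61.7% and 51.6% to 62.5%. The cause of these shifts was not tested. In HuCCT1 and YSCCC, ABCG1 had the lowest TPM, and its hairpin changes there rest on few counts.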

Other observations

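Genes next to the pathway were counted in 4 lists. Of 13 genes of the isoprenoid branch, which turns farnesyl diphosphate into dolichol, ubiquinone and prenyl anchors, only DHDDS passed the test with the hairpin, in YSCCC, with a log2 change of -0.61 (SE 0.10, edgeR adjusted p = 0.00253), where 4.56% of all genes fell and 3.69% rose. Of 18 genes of SREBP processing and sterol sensing, LBR rose (0.50, adjusted p = 0.00771) and ERLIN1 fell (-0.45, adjusted p = 0.0136) in YSCCC. LBR has a sterol reductase domain, and ERLIN1 belongs to a complex that holds SREBPs in the endoplasmic reticulum. In the mean over lines, ERLIN1 fell (-0.32, adjusted p = 0.00645) and FAF2 fell (-0.22, adjusted p = 0.0268), against 1.47% of all genes. Neither list had a called gene in KKU-100.

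Of 15 tested genes of sterol transport and esterification, STARD3NL, which tethers endosomes to the endoplasmic reticulum, rose in HuCCT1 (log2 change 1.06, SE 0.09, adjusted p = 0.00804) and in YSCCC (0.95, SE 0.15, adjusted p = 0.00261). Its KKU-100 value was 0.38 (SE 0.13, adjusted p = 0.238), and its mean over lines was 0.80 (SE 0.09, adjusted p = 0.000347). NCEH1, a hydrolase of cholesterol esters, fell in YSCCC (-0.93, SE 0.10, adjusted p = 0.000217), and its change differed between KKU-100 and YSCCC by 1.03 (SE 0.13, adjusted p = 0.00296). In YSCCC 3 genes of this list rose (STARD3NL, SOAT1, GRAMD1C) and 3 fell (NCEH1, OSBP, SCARB1), again against 3.69% and 4.56% of all genes. Its median log2 change there was -0.13, where that of all genes was 0.01.

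Of 12 tested oxysterol receptors, targets and enzymes, 3 rose in YSCCC, against 3.69% of all genes. They were RXRA, a partner of LXR (0.63, SE 0.09, adjusted p = 0.00133), the phosphodiesterase SMPDL3A (0.56, adjusted p = 0.0297) and the oxysterol hydroxylase CYP7B1 (0.73, adjusted p = 0.0468). In the mean over lines 1 of 13 rose, RXRA (0.41, SE 0.05, adjusted p = 0.00087), against 1.43%, and none rose in HuCCT1 or KKU-100. Genes of this list that fell are not reported here.

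Between lines, NR1H2, which encodes LXR-beta, was higher in KKU-100 than in HuCCT1, by 1.79 (adjusted p = 2.87e-06), and than in YSCCC, by 1.36 (adjusted p = 1.57e-05). NR1H3, which encodes LXR-alpha, was lower in KKU-100 than in HuCCT1 (-1.17, adjusted p = 0.00467). NPC2, which hands cholesterol to NPC1 in lysosomes, was lower in KKU-100 than in HuCCT1 (-2.76, adjusted p = 9e-05), while NPC1 was higher (0.85, SE 0.23, adjusted p = 0.00893).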
